A study of Mus musculus with 18 samples.

Results

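The effect of Aldh5a1 loss in hippocampus was set against its effect in cortex, animal by animal. The values came from the 12 hippocampus and cortex arrays, of 18 in the series; the other 6 were from cerebellum and entered only where stated. The groups were Aldh5a1-/- mice (KO; animals 3363, 3389 and 3403) and wild-type mice (WT; animals 3405, 3406 and 3396), 3 animals each, with 1 hippocampus and 1 cortex array of total RNA per animal. Age, strain, sex and treatment of the mice, and the part of the gene that was deleted, are not given in the sources used here. For each probe set the log2 signal of cortex was subtracted from that of hippocampus within each animal, and the 3 KO values were compared with the 3 WT values. A positive difference means that KO minus WT was higher in hippocampus than in cortex.

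The product of Aldh5a1 is succinate semialdehyde dehydrogenase, a mitochondrial enzyme that completes the breakdown of the inhibitory transmitter GABA. Without it, succinate semialdehyde is reduced to gamma-hydroxybutyrate, and both GABA and gamma-hydroxybutyrate accumulate in brain. Groups of genes that recur below are those of the integrated stress response, a programme in which phosphorylation of the initiation factor eIF2 lowers general translation and favours the transcription factors ATF4, CHOP and ATF5, and those of myelin, the lipid-rich sheath that oligodendrocytes wrap around axons in both regions.

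Between hippocampus and cortex, all 12 arrays were more like the other arrays of the region named in their own title, although a second label calls every sample hippocampus. Cerebellum was not part of this comparison. In WT mice 6 of 7 hippocampal markers on the array were higher in hippocampus, with Tyro3 the exception, and 6 of 7 cortical markers were higher in cortex, with Cck the exception. The array signal is a linear intensity with nearly the same trimmed mean on all 18 arrays, and the medians of the 12 hippocampus and cortex arrays were 58.6 to 64.8. Signals under 9.46, the floor, were raised to it before log2 was taken. Aldh5a1 was assigned 0 probe sets, so its own level was not measured here. Markers of choroid plexus, a tissue that borders the hippocampus, summed to 509 to 2179 in KO hippocampus, 1384 to 2204 in WT hippocampus, 117 to 597 in KO cortex and 265 to 787 in WT cortex. RNA integrity was followed by Gapdh, whose 3′ probe set read against its 5′ probe set gave a ratio of 0.844 ± 0.0547 in KO hippocampus and 0.841 ± 0.0429 in WT hippocampus (SD, n = 3 each). It was 0.804 ± 0.00773 in KO cortex and 0.903 ± 0.0202 in WT cortex, without overlap. Hippocampus minus cortex, the ratio was above 0 in the 3 KO animals (0.0282, 0.0925 and 0.000796) and below 0 in the 3 WT animals (-0.00835, -0.0631 and -0.113). A second control, actin, did not separate the genotypes. Its ratio was 1.33 ± 0.0665 in KO hippocampus and 1.30 ± 0.190 in WT hippocampus, and 1.77 ± 0.124 in KO cortex and 1.77 ± 0.140 in WT cortex. The part of the Gapdh difference in the results below was not tested.

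No gene was shown to respond differently in the 2 regions. Of 8382 probe sets tested with limma on the per-animal differences, 0 (0%) had an adjusted p under 0.05, and the lowest adjusted p was 0.265. At an unadjusted p under 0.05 there were 728 (8.69%), of which 421 (5.02%) had a positive difference and 307 (3.66%) a negative one. The KO and WT differences did not overlap for 729 probe sets (8.7%) with KO above WT and for 535 (6.38%) with KO below WT. The median half-width of the 95% interval of a difference was 0.53 on the log2 scale, or 1.45-fold, and for 5888 probe sets (70.2%) the whole interval lay within 1 log2 unit, a factor of 2, either side of 0. A missed threshold therefore does not show equal effects, and the intervals of single genes are given below.

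Within each region, a small number of genes passed. In hippocampus 10 probe sets (0.119%) had an adjusted p under 0.05, with 3 (0.0358%) higher and 7 (0.0835%) lower in KO. In cortex 24 (0.286%) passed, with 5 (0.0597%) higher and 19 (0.227%) lower in KO. Both regions shared 4 of them (0.0477%), 1 higher and 3 lower, which is 40% of the hippocampal and 16.7% of the cortical calls, and 0 (0%) passed with opposite signs. Another 6 (0.0716%) passed in hippocampus but not in cortex, and 20 (0.239%) in cortex but not in hippocampus. The regions come from the same 6 animals, so the lists are not independent of each other.

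**Figure D1:**
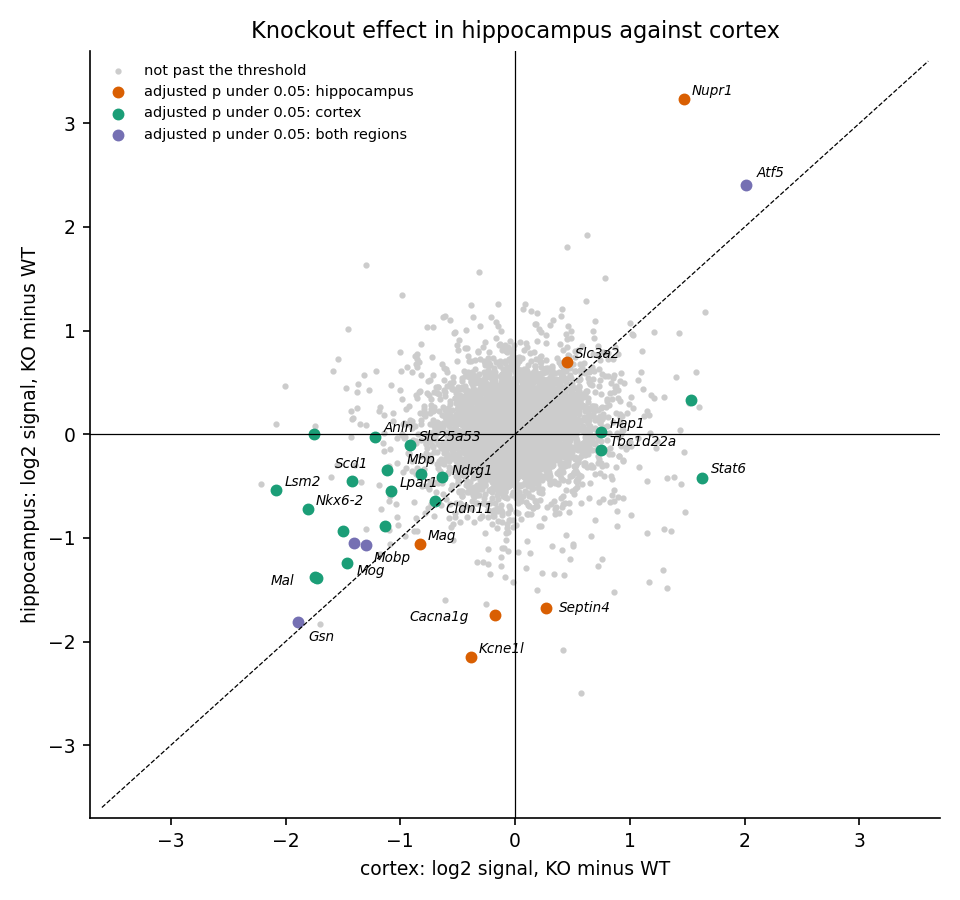
Log2 signal of KO minus WT in hippocampus (vertical) against cortex (horizontal) for 8382 probe sets, with those past an adjusted p of 0.05 coloured by region and the dashed line marking equal effects. The 4 shared probe sets (Atf5, Gsn and 2 of Mobp) lie near the line, while Nupr1, Cacna1g, Kcne1l and Septin4 lie off it on the side of hippocampus and Lsm2, Anln and Stat6 on the side of cortex.

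The genes that changed in both regions were Atf5, which rose, and Gsn and Mobp, which fell. Atf5 encodes a leucine zipper transcription factor whose mRNA and translation go up in the integrated stress response. Its signal was 217, 430.1 and 259.7 in KO hippocampus, against 52.0, 49.7 and 63.0 in WT hippocampus. In KO cortex it was 107, 209.5 and 178, against 40.8, 33.8 and 44.1 in WT cortex. The KO arrays were above the WT arrays without overlap in both regions, and KO animal 3363 was the lowest of the KO animals in each. The log2 difference was 2.41 ± 0.29 in hippocampus and 2.01 ± 0.29 in cortex (SE), 5.30-fold and 4.03-fold (adjusted p = 0.000953 and 0.00236). The effect in hippocampus minus that in cortex was 0.39 (95% interval -0.10 to 0.89, unadjusted p = 0.103), and the upper bound is 0.89 log2 units.

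Gsn encodes gelsolin, an actin-severing protein that oligodendrocytes express strongly. It read 162, 161 and 218 in KO hippocampus, against 743, 726 and 456 in WT hippocampus. The cortical values were 213, 130.0 and 87.1 in KO and 555, 545 and 406 in WT. All KO arrays of a region lay below all its WT arrays, and WT animal 3396 was the lowest WT animal in both regions. Gsn fell 3.51-fold in hippocampus and 3.71-fold in cortex (adjusted p = 0.00165 and 0.00178), and the effects differed by 0.08 log2 units (-0.78 to 0.94). KO animal 3403 had the highest Gsn signal of the KO animals in hippocampus and the lowest in cortex, while 3363 had the highest in cortex.

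Mobp, which encodes a small basic protein of central myelin, was measured by 4 probe sets. The brightest read 820.3, 656 and 881 in KO hippocampus, against 1733, 1923 and 1272 in WT hippocampus. In KO cortex it read 854, 638 and 530.5, against 1903, 1825 and 1529 in WT cortex. It fell 2.08-fold in hippocampus (adjusted p = 0.00646) and 2.64-fold in cortex (adjusted p = 0.000758), with no overlap between KO and WT in either. A second probe set fell 2.10-fold and 2.46-fold (adjusted p = 0.0101 and 0.00192). The other two passed in cortex only, with log2 differences of -0.89 and -1.37 in hippocampus (adjusted p = 0.124 and 0.112) and -1.13 and -1.74 in cortex. A positive difference of effects was seen on all 4 probe sets, 0.23 to 0.37 log2 units, and each 95% interval included 0. In these bulk samples fewer oligodendrocytes and less RNA per oligodendrocyte cannot be told apart.

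In each region the calls were made against the spread over all 18 arrays. On a region's own 6 arrays 0 probe sets were higher and 1 was lower in hippocampus, and 1 was higher and 2 were lower in cortex. Atf5 passed in both regions with any 1 animal left out, and so did both shared Mobp probe sets and Gsn in cortex. Over all alternatives Atf5 passed under 13 of 14 in each region, with a highest adjusted p of 0.137 in hippocampus and 0.0915 in cortex. The hippocampal miss was on the region's own 6 arrays. In hippocampus Gsn was lost without WT animal 3405 (adjusted p = 0.0536) and the Mobp probe sets without several animals, 3405 among them (up to 0.133 and 0.225). The 3 shared probe sets that were lower became 0 without 3405, 1 without KO animal 3389 or WT animal 3406, and 11 without WT animal 3396, whose myelin signals were the lowest of the WT animals.

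**Figure D2:**
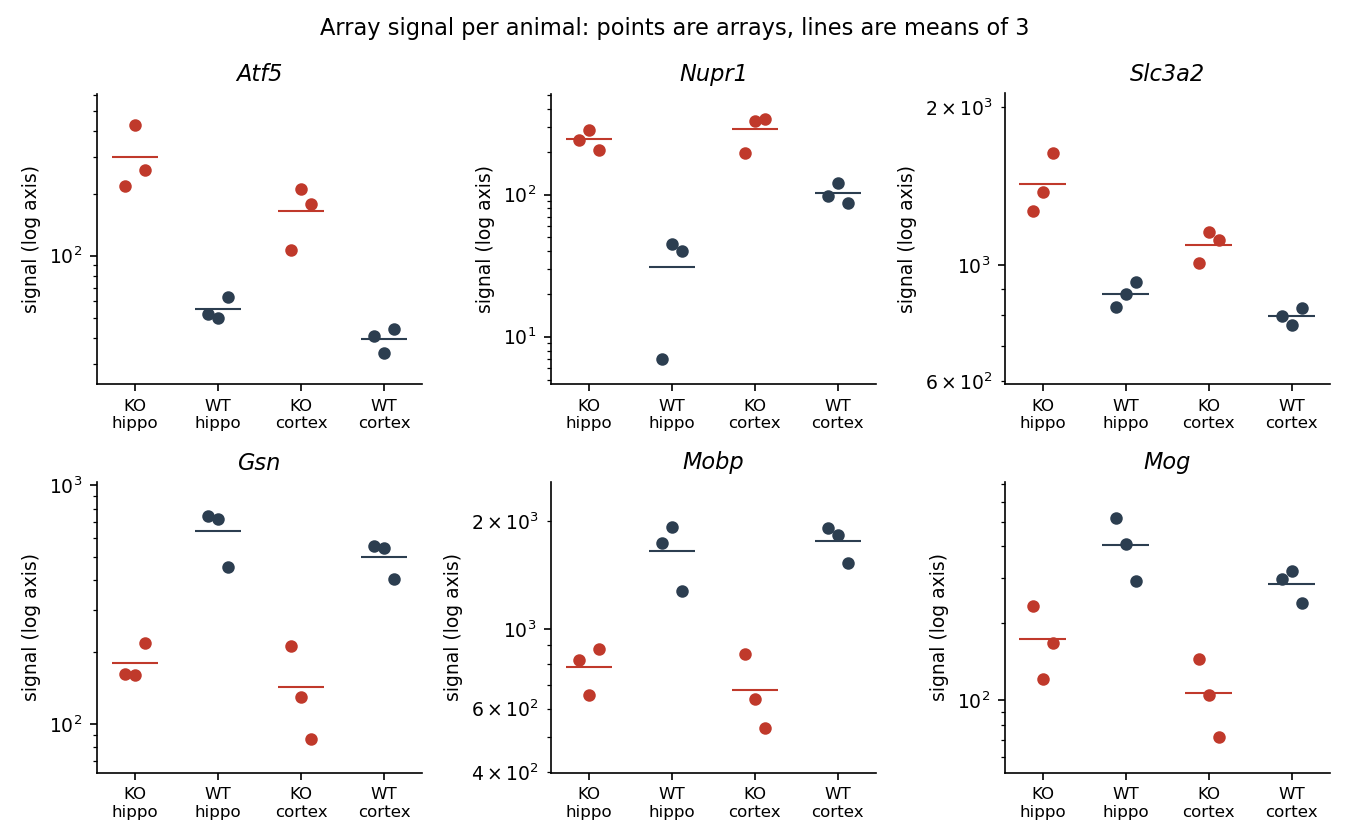
Array signal (log axis) of 6 genes in each animal, KO left of WT, for hippocampus and then cortex, with points for arrays and lines for the mean of 3. Atf5, Gsn, Mobp and Mog separate KO from WT by a similar factor in both regions, and for Nupr1 the WT level is lower in hippocampus (1 array, of animal 3405, under the floor of 9.46) than in cortex.

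The sequence upstream of the start sites is printed for Atf5, the gene raised in both regions, for Nupr1, which passed in hippocampus, and for Mobp, the lowered myelin gene with the most probe sets. Each run is the 250 bases before a RefSeq start site, 5′ to 3′ on the strand of the gene (GRCm38.p6). Capitals mark matches on either strand to ATTGCATCA, the core of the composite element bound by C/EBP and ATF factors, and to CTTTGT, a core recognised by SOX factors. Both motifs were chosen after the sequences had been seen. Atf5 has a pair of windows, chr7:44816659-44816908 and chr7:44815659-44815908 on the minus strand, Nupr1 has chr7:126625471-126625720 on the minus strand and Mobp chr9:120149492-120149741 on the plus strand.
Atf5 window 1: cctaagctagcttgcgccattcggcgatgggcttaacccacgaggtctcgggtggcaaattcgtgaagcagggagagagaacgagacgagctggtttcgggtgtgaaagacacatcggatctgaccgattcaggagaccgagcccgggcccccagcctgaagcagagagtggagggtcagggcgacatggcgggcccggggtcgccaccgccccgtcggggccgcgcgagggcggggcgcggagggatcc
Atf5 window 2: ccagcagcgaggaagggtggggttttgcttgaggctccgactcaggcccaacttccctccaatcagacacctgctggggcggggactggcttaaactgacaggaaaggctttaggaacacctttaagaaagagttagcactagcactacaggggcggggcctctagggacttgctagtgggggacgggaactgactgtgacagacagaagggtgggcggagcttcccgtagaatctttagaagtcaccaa
Nupr1: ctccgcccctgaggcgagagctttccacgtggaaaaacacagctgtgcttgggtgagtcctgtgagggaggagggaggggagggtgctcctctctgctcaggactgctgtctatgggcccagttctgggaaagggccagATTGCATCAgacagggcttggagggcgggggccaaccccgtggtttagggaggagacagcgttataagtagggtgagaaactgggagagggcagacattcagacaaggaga
Mobp: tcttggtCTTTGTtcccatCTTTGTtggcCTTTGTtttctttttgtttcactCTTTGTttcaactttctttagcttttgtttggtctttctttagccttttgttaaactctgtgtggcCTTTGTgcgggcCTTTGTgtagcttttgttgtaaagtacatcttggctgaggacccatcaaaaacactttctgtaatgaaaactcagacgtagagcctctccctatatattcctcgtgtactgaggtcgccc

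Nupr1 held 1 match to ATTGCATCA, starting 111 bases before the start site, and 55 of all 32851 windows (0.167%) held it at least once. The Atf5 windows held 0 matches to either motif. Mobp held 6 matches to CTTTGT. At least 1 match was held by 16.5% of all windows, and at least 6 by 1 of them (0.00304%), which is that of Mobp. The cut of 6 was set to the count of Mobp itself, so this share describes its window and tests nothing. Of the genes that passed in hippocampus, 3 of 8 with a window held CTTTGT (Mag, Mobp and Septin4), and of those that passed in cortex, 2 of 14 (Lpar1 and Mobp). A gene was counted if any of its windows held the motif, and the 16.5% is a share of windows, so they are not directly comparable. These are matches of letters, and no measurement of binding was made.

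The genes that passed in hippocampus and not in cortex were Nupr1 and Slc3a2, which rose, and Cacna1g, Kcne1l, Septin4 and Mag, which fell. Nupr1 encodes a small stress-induced nuclear protein. Its signal was 243, 284 and 205 in KO hippocampus, against 7.03, 45.0 and 40.02 in WT hippocampus, with WT animal 3405 under the floor. In KO cortex it was 196, 330.0 and 338, against 98.3, 120.5 and 87.2 in WT cortex. The KO arrays of both regions spanned a similar range, and the WT arrays were lower in hippocampus than in cortex. The log2 difference was 3.23 ± 0.44 in hippocampus (adjusted p = 0.00165) and 1.47 ± 0.44 in cortex (adjusted p = 0.23), with no overlap between KO and WT in either region. The effects differed by 1.76 log2 units (0.47 to 3.06), which did not pass (unadjusted p = 0.0138, adjusted p = 0.506). Without WT animal 3405 the hippocampal log2 difference was 2.51 and the effects differed by 1.06.

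Slc3a2 encodes the heavy chain shared by several amino acid exchangers at the cell surface. It read 1268, 1379 and 1637 in KO hippocampus, against 830.0, 878 and 925 in WT hippocampus. In cortex the values were 1008, 1157 and 1113 in KO and 799, 767 and 828 in WT. It rose 1.62-fold in hippocampus (adjusted p = 0.0101). In cortex it was 1.37-fold higher without passing (adjusted p = 0.14), and KO and WT did not overlap there either. The difference of 0.24 (-0.03 to 0.52) is at most 0.52 log2 units by its interval.

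Cacna1g encodes the pore subunit of a low-voltage-activated, T-type calcium channel, abundant in thalamus and in pyramidal neurons. Its signal was 9.84, 13.4 and 15.0 in KO hippocampus, against 57.2, 38.8 and 33.2 in WT hippocampus. In cortex it was 61.1, 51.6 and 62.4 in KO and 50.2, 88.3 and 64.1 in WT, which overlapped. It fell 3.34-fold in hippocampus (adjusted p = 0.00165), where the KO arrays were only a little above the floor, and differed by -0.18 log2 units in cortex (adjusted p = 0.861). Its effects differed by -1.56 (-2.54 to -0.59, unadjusted p = 0.00594, adjusted p = 0.453). Of the other 9 kept genes of the thalamus list, 0 passed in either region.

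Kcne1l, an accessory subunit of potassium channels, was under the floor on all 3 KO hippocampus arrays, against 44.2, 44.5 and 37.7 in WT hippocampus, which makes it at least 4.44-fold lower in KO (adjusted p = 0.00349). In cortex all 3 KO arrays and 2 of 3 WT arrays were under the floor. Its difference of effects, -1.76 (-2.74 to -0.78), rests on values raised to the floor. Within hippocampus and cortex only WT arrays, mainly those of hippocampus, could count towards the signal filter for Kcne1l. The main adjusted p is therefore not independent of how the probe set was kept. Of 14 alternatives for the hippocampal call, 13 passed, no filter among them, and the miss was without WT animal 3405.

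Septin4 encodes a filament-forming GTPase found in oligodendrocytes and astroglia. One of its probe sets read 5.76, 17.4 and 19.3 in KO hippocampus, with 1 array under the floor, against 51.6, 34.6 and 57.7 in WT hippocampus. Cortical signals were 32.6, 39.6 and 39.4 in KO and 29.9, 33.6 and 28.9 in WT. On this probe set the effects differed by -1.94 (-2.82 to -1.06, adjusted p = 0.404). The brighter Septin4 probe set gave -0.84 in hippocampus and -0.48 in cortex, a difference of -0.37, and passed in neither, so the probe sets disagree in cortex.

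Mag encodes a glycoprotein at the face of myelin next to the axon. It read 295, 314 and 477 in KO hippocampus, against 818, 785 and 625 in WT hippocampus. For cortex the signals were 302, 268 and 244 in KO and 617, 505 and 357 in WT. It fell 2.09-fold in hippocampus (adjusted p = 0.032) and was 1.78-fold lower in cortex (adjusted p = 0.0988), with no overlap in either region. The difference was -0.23 (-0.80 to 0.34). A dimmer Mag probe set had log2 differences of 0.59 and 0.07 in hippocampus and cortex and did not pass.

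Of the 6 hippocampal genes, 5 had the same sign in cortex, 3 of them with an unadjusted p under 0.05 there (10.2% of all probe sets had one in cortex), and Septin4 had the opposite sign. For 4 of the 6 the difference of effects had an unadjusted p under 0.05 (8.69% of all probe sets), and the lowest adjusted p among them was 0.404. These genes were chosen by their values in hippocampus, which also enter the difference, so these counts describe them and test nothing. Nupr1 and Cacna1g passed in hippocampus with any 1 animal left out. Kcne1l did not without WT animal 3405 (adjusted p = 0.0536), Slc3a2 without 3405 or 3406 (up to 0.133), Septin4 without 3363, 3389, 3405 or 3396 (up to 0.125) and Mag without 3363, 3389, 3405 or 3406 (up to 0.337).

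The 20 probe sets that passed in cortex and not in hippocampus include 15 named genes, of which 9 are in the list of myelin and mature oligodendrocyte genes, Mobp among them, and all 9 fell in cortex. Mal, a proteolipid of compact myelin, read 501, 236 and 313 in KO hippocampus, against 1007, 975 and 676 in WT hippocampus. In cortex it read 346, 164 and 183 in KO and 781, 812 and 595 in WT. The groups did not overlap in either region, and the log2 difference was -1.39 ± 0.29 in hippocampus (adjusted p = 0.0846) and -1.73 ± 0.29 in cortex (adjusted p = 0.00782). Mog, the glycoprotein on the outermost surface of myelin, had signals of 233, 121 and 168 in KO hippocampus and 519, 411 and 292 in WT hippocampus. In cortex the values were 145, 105 and 71.6 in KO and 298, 321 and 241 in WT, again without overlap. Its log2 difference was -1.24 ± 0.24 in hippocampus (adjusted p = 0.0569) and -1.47 ± 0.24 in cortex (adjusted p = 0.00782).

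Mbp, the main cytoplasmic protein of compact myelin, read 2311, 2046 and 2514 in KO hippocampus, against 3577, 3504 and 2116 in WT hippocampus, where animal 3396 lay among the KO values. Mbp signals in cortex were 2013, 1797 and 1868 in KO and 3748, 3470.5 and 2858 in WT. The log2 difference was -0.39 in hippocampus (adjusted p = 0.534), and in cortex Mbp fell 1.77-fold (adjusted p = 0.0214). A dimmer Mbp probe set differed by 0.09 in hippocampus and 0.09 in cortex and did not pass. Cldn11, the tight junction protein of myelin, had log2 differences of -0.64 in hippocampus and -0.70 in cortex (adjusted p = 0.112 and 0.0305), but a dimmer Cldn11 probe set gave -0.08 and 0.04 and did not pass. Nkx6-2, a transcription factor of oligodendrocytes, had -0.72 in hippocampus and -1.81 in cortex (adjusted p = 0.574 and 0.0114).

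For Lpar1, a lysophosphatidic acid receptor that oligodendrocytes carry, the signals were 126, 106 and 129 in KO hippocampus and 173, 225 and 140.3 in WT hippocampus. The corresponding values were 66.6, 72.5 and 66.9 in KO cortex and 161, 144 and 133 in WT cortex, and the groups did not overlap in either region. Ndrg1, a stress-responsive protein found in oligodendrocytes, was 1.33-fold lower in hippocampus (adjusted p = 0.389) and fell 1.56-fold in cortex (adjusted p = 0.0462). On a second Ndrg1 probe set, which did not pass, the log2 differences were -0.30 and -0.40. Anln encodes anillin, which binds actin and septins. Its hippocampal signals, 93.1, 59.3 and 74.2 in KO and 75.0, 74.0 and 77.2 in WT, overlapped. In cortex they were 19.1, 32.4 and 24.0 in KO and 53.1, 66.0 and 53.4 in WT, without overlap. In hippocampus Anln had a log2 difference of -0.02 and a 95% interval of -0.45 to 0.41, against -1.22 (-1.65 to -0.79) in cortex. The difference of effects was 1.20 for Anln (0.33 to 2.06), 1.08 for Nkx6-2 (-0.11 to 2.28), 0.53 for Lpar1 (0.01 to 1.05) and 0.43 for Mbp (0.09 to 0.78). It was nearer 0 for Mal (0.34, 0.05 to 0.62), Mog (0.23, -0.39 to 0.84), Ndrg1 (0.23, -0.13 to 0.59) and Cldn11 (0.06, -0.29 to 0.41).

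Other genes passed in cortex and lie outside myelin. Scd1, a desaturase that makes monounsaturated fatty acids, read 523, 638 and 382 in KO hippocampus, against 612, 615 and 695 in WT hippocampus, which overlapped. In cortex it read 299, 301 and 286 in KO and 688, 582 and 652 in WT, and KO lay below WT on every array. Its effects differed by 0.77 (0.35 to 1.18, unadjusted p = 0.00264, adjusted p = 0.435). On this probe set Scd1 fell 2.16-fold in cortex (adjusted p = 0.0083). Of the other Scd1 probe sets, the brightest had a difference of 0.13 and the dimmest one of -0.75, so they do not share a direction. Their log2 differences in cortex were -0.43 and 0.46 and did not pass (adjusted p = 0.291 and 0.865).

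Lsm2, a subunit of the ring that binds U6 small nuclear RNA, read 35.2, 62.4 and 59.7 in KO hippocampus, against 81.9, 75.7 and 64.7 in WT hippocampus. Its values in cortex were 16.5, 15.2 and 12.3 in KO and 78.9, 88.8 and 33.5 in WT, and KO lay below WT in both regions. It fell 4.24-fold in cortex (adjusted p = 0.00251) and the difference of effects was 1.55 (0.55 to 2.55). Slc25a53, of the mitochondrial carrier family, had a log2 difference of -0.10 in hippocampus and fell 1.88-fold in cortex (adjusted p = 0.0253), with a difference of effects of 0.81 (0.21 to 1.41).

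Besides Atf5, the genes that rose in cortex were Stat6, Hap1 and Tbc1d22a. Stat6, a transcription factor activated by interleukin 4, read 21.7, 18.4 and 30.1 in KO hippocampus, against 32.8, 29.4 and 29.7 in WT hippocampus, with overlap. Signals in cortex were 65.3, 40.6 and 38.9 in KO and 13.8, 13.6 and 18.6 in WT, and KO was the higher on every array. No other array of these regions read above 32.8, so within them the signal filter may have been met only through KO cortex. The adjusted p of Stat6 may therefore not be independent of how the probe set was kept. For Stat6 the difference of effects, -2.05 (-2.98 to -1.12), had the lowest unadjusted p of the named cortical genes (0.000912, adjusted p = 0.404). Hap1, a trafficking protein that binds huntingtin, had hippocampal signals of 467, 397 and 447 in KO and 418, 474 and 399 in WT, which overlapped. In cortex they were 513, 465 and 334 in KO and 286, 231 and 253 in WT, and KO was higher without overlap. Tbc1d22a, which has the TBC domain of proteins that act on Rab GTPases, differed by -0.15 log2 units in hippocampus and rose 1.68-fold in cortex (adjusted p = 0.0267). The differences were -0.73 (-1.20 to -0.26) and -0.90 (-1.36 to -0.44), but a second Tbc1d22a probe set gave -0.07. The remaining 4 of the 20 probe sets have no single gene symbol, and 3 of them were lower and 1 was higher in KO.

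Of the 20 cortical probe sets, 17 had the same sign in hippocampus and 3 the opposite sign or no difference, and 11 had an unadjusted p under 0.05 there (8.41% of all probe sets). For 13 the difference of effects had an unadjusted p under 0.05 (8.69% of all probe sets), and none passed after adjustment, with a lowest adjusted p of again 0.404. They were chosen by their cortical values, which enter the difference. With the 4 shared ones removed, each of the 16 with a gene symbol was lost without WT animal 3405. Over all 6 animals left out in turn, the highest adjusted p of the 16 was 0.256. Lsm2 and Scd1 were lost only without 3405 (0.0688 and 0.117), Lpar1 and 1 Mobp probe set also without 3403, and Stat6 without any 1 of the 6 animals. In cortex 2 probe sets were higher without 3389, 3403 or 3405 and 8 without 3406, while 8 were lower without 3403, 4 without 3405 and 10 without 3406. In hippocampus 7 were higher without 3363, while 11 were lower without 3403, 1 without 3405, 4 without 3406 and 18 without 3396. The Gapdh 3′ to 5′ ratio separated KO from WT in cortex and that of actin did not, as given above, and the part of the Gapdh ratio in these calls was not tested.

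**Figure D3:**
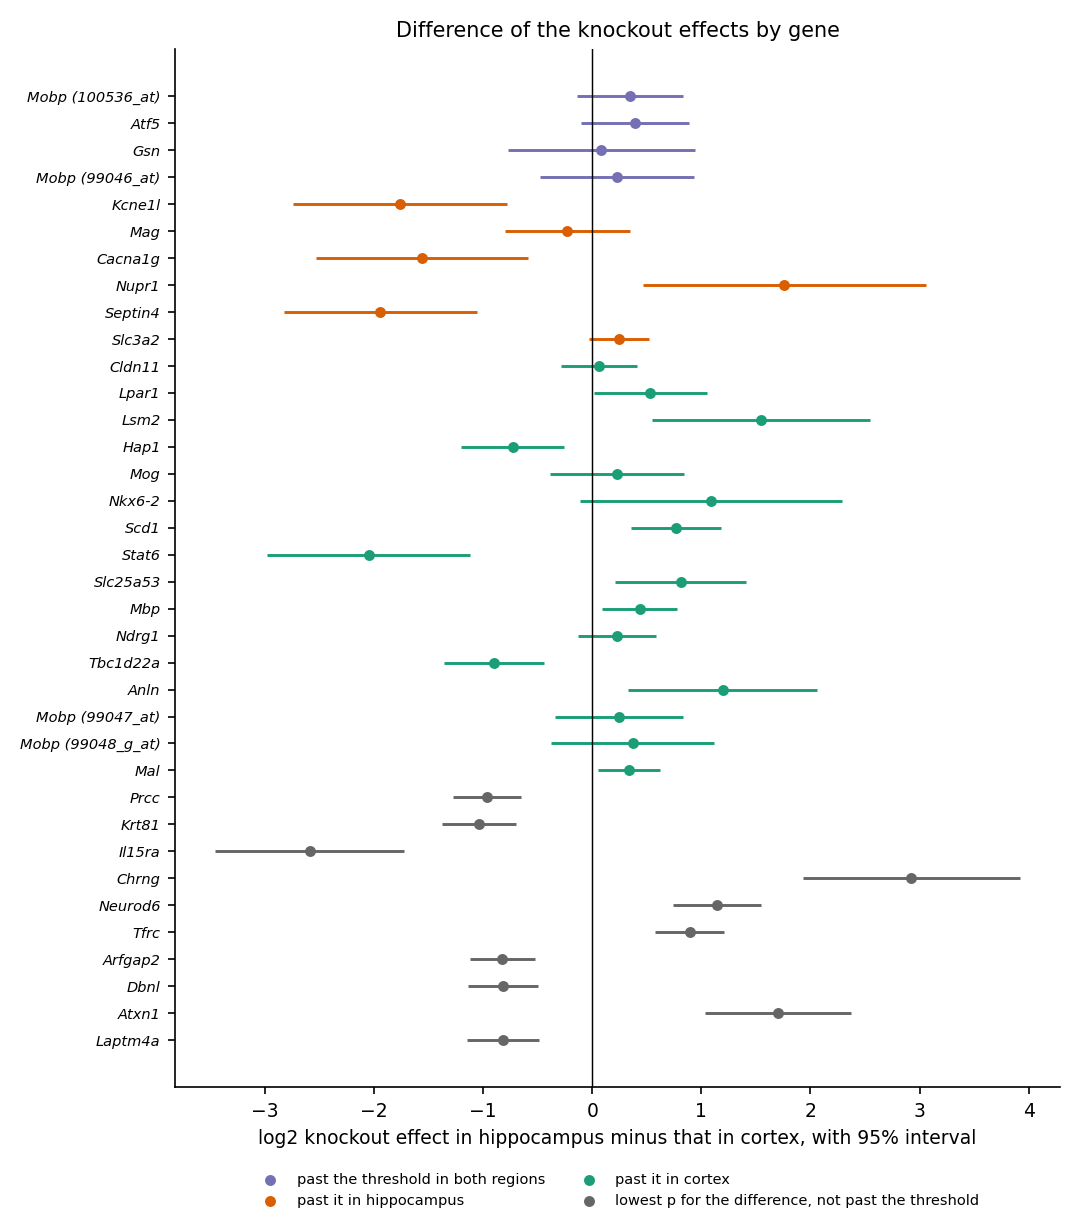
Knockout effect in hippocampus minus that in cortex (log2 units, with 95% intervals) for each named probe set, coloured by where it passed an adjusted p of 0.05. For the 4 shared probe sets the intervals include 0, and for the 10 genes in grey, which had the lowest p, none passed after adjustment.

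The 10 genes with the lowest p for the difference did not pass, with adjusted p of 0.265 to 0.342. For all 10 the KO and WT differences did not overlap (15.1% of all probe sets). For each of them the effects in hippocampus and cortex had opposite signs, and 0 of the 10 passed within a region. These genes were chosen by their p for this same difference, so these counts describe them and test nothing. Neurod6, a transcription factor of pyramidal neurons, read 544, 473 and 527 in KO hippocampus, against 323, 332 and 429 in WT hippocampus. In cortex it read 88.8, 86.1 and 121 in KO and 138, 123 and 199 in WT. KO was above WT in hippocampus and below it in cortex, without overlap in either, and the difference was 1.14 (0.74 to 1.54). Tfrc, the transferrin receptor for iron uptake, read 942, 824 and 729 in KO hippocampus, against 597, 542 and 432 in WT hippocampus. Its cortical values were 769, 784 and 714 in KO and 1035, 793 and 828 in WT, and the difference was 0.89 (0.57 to 1.21). A dimmer Tfrc probe set gave 0.45.

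Atxn1, which encodes the transcriptional regulator ataxin-1, read 48.0, 38.6 and 40.5 in KO hippocampus, against 31.3, 34.9 and 28.3 in WT hippocampus. The corresponding values were 19.2, 20.8 and 20.3 in KO cortex and 49.7, 48.3 and 47.9 in WT cortex, so that the groups lay apart in opposite directions. Its difference was 1.70 (1.03 to 2.37). Chrng encodes the gamma subunit of the embryonic muscle acetylcholine receptor. It had the largest difference of these 10, 2.92 (1.93 to 3.92), at low signals of 41.7, 74.3 and 48.0 in KO hippocampus, 13.7, 14.0 and 26.3 in WT hippocampus, 15.1, 19.7 and 21.4 in KO cortex and 22.6, 61.7 and 67.7 in WT cortex. A second Chrng probe set gave 0.37.

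The other 6 of the 10 had negative differences, with KO relatively lower in hippocampus. Il15ra, the alpha chain of the interleukin 15 receptor, had signals of 17.1, 26.2 and 19.1 in KO hippocampus, 56.4, 48.3 and 47.5 in WT hippocampus, 30.4, 89.1 and 44.3 in KO cortex and 18.3, 17.1 and 26.4 in WT cortex. Its difference was -2.59 (-3.45 to -1.73). The keratin gene Krt81 gave -1.04 (-1.38 to -0.70), and Prcc, whose product takes part in splicing, -0.97 (-1.28 to -0.66), with -0.10 on a dimmer Prcc probe set. Arfgap2, which activates the GTPase of ARF in COPI transport, gave -0.82 (-1.13 to -0.52). Dbnl, an actin-binding protein of synapses and endocytosis, gave -0.82 (-1.14 to -0.50), and the lysosomal membrane protein gene Laptm4a -0.82 (-1.14 to -0.49).

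**Figure D4:**
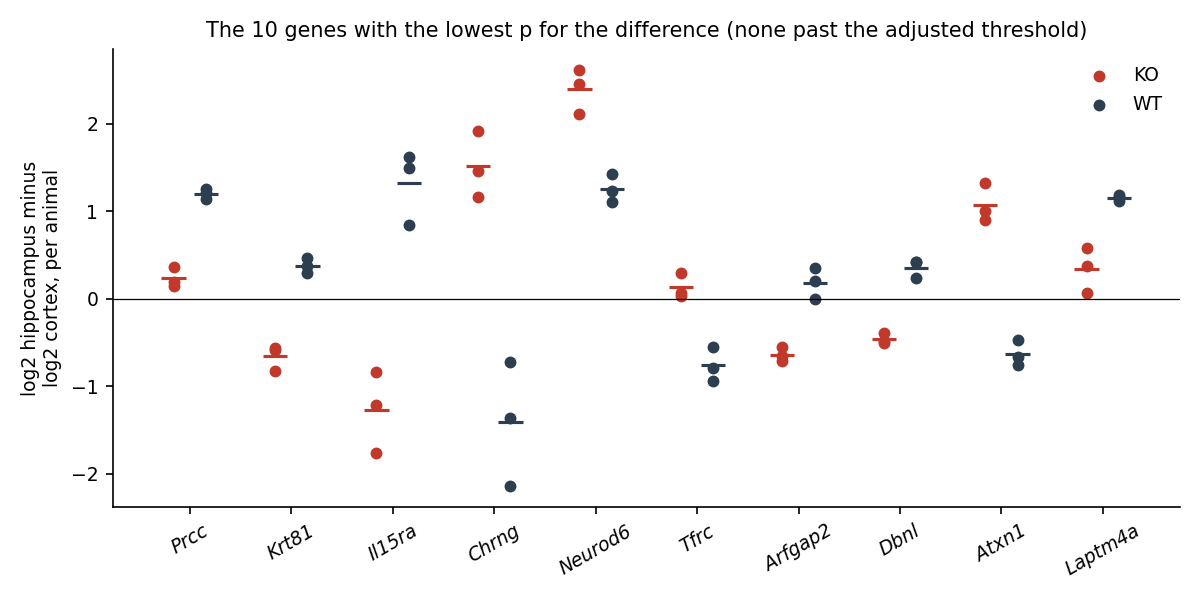
Log2 hippocampus minus log2 cortex in each animal, KO (left) and WT (right) beside each other, for the 10 genes with the lowest p for the difference, with lines for the mean of 3. The 10 were chosen by this p, KO and WT do not overlap for any of them, and none passed after adjustment over 8382 probe sets.

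The effect averaged over both regions was tested on the mean of the 2 log2 values of each animal. A change in 1 region alone also moves this mean, so passing does not show that a change is common to both. By this measure 5 probe sets (0.0597%) passed, 1 higher (0.0119%) and 4 lower (0.0477%) in KO. Atf5 rose by 2.21 ± 0.23 log2 units (SE; adjusted p = 0.0322). Gsn fell by 1.85 (adjusted p = 0.0205) and both shared Mobp probe sets fell by 1.23 and 1.18 (adjusted p = 0.0345 and 0.0205). The fifth has no single gene symbol. Next by p and not past the threshold were Nupr1 (2.35 ± 0.30, adjusted p = 0.0662), Gamt (-0.84 ± 0.11, 0.0784), Slc3a2 (0.57 ± 0.08, 0.0927) and Nkx6-2 (-1.27 ± 0.18, 0.0959).

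Gamt encodes the enzyme of the last step of creatine synthesis, which oligodendrocytes express. Its signals were 111, 134 and 177 in KO hippocampus, against 251, 263 and 212 in WT hippocampus. In cortex they were 104, 97.3 and 85.5 in KO and 206, 163 and 156 in WT, again without overlap. Its effects in the regions differed by 0.06 log2 units (-0.53 to 0.65), but a brighter Gamt probe set had a log2 difference of -0.12 in that mean. The mean rests on 6 values with 4 residual degrees of freedom, and no probe set passed without 3389, 3403, 3405 or 3406, while without 3363 there were 3 higher and without 3396 there were 14 lower.

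Gene lists were made with earlier results of these data known, with 1 probe set per gene, and are described by counts beside those over all 8382 probe sets. Of 33 myelin and mature oligodendrocyte genes, 20 were kept. In hippocampus 3 fell and 0 rose, all 20 lay below 0 (45.4% of all probe sets did), and 12 had KO below WT without overlap (6.93%). In cortex 10 fell and 0 rose, 19 lay below 0 (49.4%) and 14 were without overlap (7.13%). The median log2 difference was -0.60 in hippocampus and -0.80 in cortex, against 0.02 and 0.00 over all probe sets. By array, relative to the WT mean of the region, the median over the 20 genes was -0.58, -0.87 and -0.50 in KO hippocampus and 0.17, 0.15 and -0.33 in WT hippocampus. In cortex it was -0.61, -0.83 and -0.91 in KO and 0.10, 0.09 and -0.19 in WT. KO and WT did not overlap in either region, and WT animal 3396 was the lowest WT animal in both. The difference of effects had a median of 0.09, with 14 of 20 above 0 (52.5% of all), 3 with KO above WT without overlap (8.7%) and 0 with KO below (6.38%). The 5 kept genes of the oligodendrocyte lineage and precursors had medians of -0.24 in hippocampus and -0.05 in cortex, and 0 passed.

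Of 37 integrated stress response genes, 29 were kept. In hippocampus 3 rose (Atf5, Nupr1 and Slc3a2) and 0 fell, 26 lay above 0 (54.6% of all probe sets) and 14 had KO above WT without overlap (10.3%). In cortex 1 rose (Atf5) and 0 fell, 19 lay above 0 (50.5%) and 13 were above without overlap (7.05%). The medians were 0.28 and 0.22. Relative to the WT mean of the region, the median over the 29 genes was 0.28, 0.39 and 0.46 in KO hippocampus and 0.01, -0.01 and 0.05 in WT hippocampus. It was 0.05, 0.18 and 0.26 in KO cortex and 0.05, -0.08 and 0.01 in WT cortex. KO animal 3363 was the lowest KO animal in both regions, and in cortex it was level with the highest WT array.

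The difference of effects within this list had a median of 0.21, 19 of 29 lay above 0 (52.5% of all), 8 had KO above WT without overlap (27.6%, against 8.7% of all) and 0 had KO below (against 6.38%). None passed. The lowest p were those of Eif4ebp1, Ddit3, Nupr1 and Atf4, of which all but Nupr1 were chosen after their values had been seen. Eif4ebp1, a repressor of cap-dependent translation, read 53.3, 72.4 and 77.5 in KO hippocampus, against 26.1, 8.01 and 22.1 in WT hippocampus. In cortex it read 40.6, 63.8 and 56.7 in KO and 36.5, 27.3 and 40.2 in WT, and the difference was 1.30 (0.51 to 2.09), with 1 WT hippocampus array under the floor. Ddit3, which encodes CHOP, read 120.2, 132 and 167 in KO hippocampus, against 98.0, 61.4 and 80.4 in WT hippocampus. Its cortical values, 100.2, 113 and 156 in KO and 134, 140.4 and 109 in WT, overlapped, and the difference was 0.89 (0.32 to 1.45). Atf4, the central factor of the response, differed by 0.33 (0.07 to 0.59). Its log2 difference was 0.25 in hippocampus and -0.08 in cortex (adjusted p = 0.675 and 0.895), and KO and WT overlapped in both regions. Also chosen after their values had been seen were Slc7a5 and Mthfd2. For Slc7a5, the light chain that pairs with the Slc3a2 product, and Mthfd2, a mitochondrial folate enzyme, the log2 differences were 0.59 and 0.78 in hippocampus and 0.57 and 0.81 in cortex, and the differences of effects were 0.01 ± 0.16 and -0.03 ± 0.21 (SE). Neither passed in either region.

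Cholesterol synthesis genes (16 kept of 24) had medians of -0.40 in hippocampus and -0.31 in cortex, and 0 passed in either region. The difference had a median of -0.08, and the lowest p was that of Sqle, squalene epoxidase, at -0.63 ± 0.18 (SE; adjusted p = 0.464). Sqle read 387 ± 80.0 in KO hippocampus and 541 ± 129 in WT hippocampus, against 506 ± 51.7 in KO cortex and 456 ± 25.1 in WT cortex (SD, n = 3 each). The next was Hsd17b7, a reductase of the pathway, at -0.78 ± 0.39. Fatty acid synthesis genes (10 kept) had medians of -0.16 in hippocampus, -0.17 in cortex and 0.11 for the difference, led by the regulator Srebf1 (0.33 ± 0.15) and the desaturase Scd2 (0.36 ± 0.16), with 0 past the threshold.

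Among glial lists, those of reactive gliosis and microglia had medians above 0 in both regions, with 0 members past the threshold. The 11 kept reactive gliosis genes had medians of 0.32 in hippocampus, 0.13 in cortex and 0.18 for the difference. For the difference 8 of 11 lay above 0 (52.5% of all) and 3 below, the lowest at -0.72. KO lay above WT without overlap for 2 (8.7% of all) and below it for 1 (6.38%). The 2 of lowest p were Timp1, an inhibitor of matrix proteases, at 0.58 ± 0.17, and Lcn2, a lipocalin of reactive astrocytes, at 0.64 ± 0.29. All 14 microglia genes lay above 0 in hippocampus (54.6% of all probe sets), with a median of 0.30. In cortex 12 of 14 did (50.5% of all), with a median of 0.26. Their difference of effects had a median of 0.04, with 8 of 14 above 0 (52.5% of all) and 6 below. The 2 of lowest p were the endotoxin co-receptor gene Cd14, at 0.70 ± 0.17, and the leukocyte surface gene Cd52, at 0.78 ± 0.30. The 13 astrocyte genes had a median difference of 0.01, with Glul, glutamine synthetase, at -0.57 ± 0.15 and the glycolytic gene Aldoc at 0.35 ± 0.13. For the 15 endothelial genes it was -0.04, with Tfrc as above and the membrane protein gene Itm2a at -0.42 ± 0.24.

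Markers of tissue that could be dissected with either region were also followed. The 8 kept choroid plexus genes had the lowest median difference of the 24 lists, -0.39, from -0.36 in hippocampus and -0.04 in cortex. By array, relative to the WT mean of the region, their median was -0.76, -0.30 and 0.13 in KO hippocampus and -0.05, 0.26 and -0.24 in WT hippocampus. In cortex it was -0.58, 0.46 and 0.03 in KO and -0.43, -0.05 and 0.33 in WT, so KO and WT overlapped in both regions. The choroid plexus genes of lowest p were Igfbp2, an IGF-binding protein (-0.52 ± 0.27), and Ace, a peptidase (-0.65 ± 0.36). Ttr, the transthyretin gene that choroid plexus expresses most, was added after its values had been seen. KO and WT overlapped in both regions, with 341, 1228 and 1907 in KO hippocampus, 1475, 1902 and 1158 in WT hippocampus, 80.3, 524 and 333 in KO cortex and 222, 403 and 711 in WT cortex. The 10 thalamus genes had a median difference of -0.16, with Cacna1g as above, and the 7 striatum genes one of 0.05, with the peptide genes Penk at 0.39 ± 0.22 and Tac1 at 0.50 ± 0.31. Summed signals of the 7 striatum genes were uneven in WT cortex, at 2235, 1820 and 1235 in animals 3405, 3406 and 3396. In KO cortex they were 1490, 1375 and 1311. The part of this in the cortical calls was not tested. Genes of hippocampal fields (19 kept) and cortical layers (18 kept) had medians of 0.11 and 0.00. Among them Lct, a lactase, gave 1.25 ± 0.34, the calcium buffer gene Calb1 0.38 ± 0.17, the syntaxin gene Stx1a -0.45 ± 0.15 and Lmo4, a LIM-only regulator, 0.31 ± 0.13.

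Neuronal lists had median differences of -0.07 to 0.14, and 0 of their members passed for the difference. Genes of GABA synthesis, transport and breakdown (13 kept) had medians of -0.10 in hippocampus and -0.07 in cortex and a median difference of -0.07, with Glul as above and Gad1, a GABA-synthesising enzyme, at -0.26 ± 0.12. GABA receptor subunits (10 kept) had a median difference of -0.01, with Gabbr1, of the GABA-B receptor, at -0.33 ± 0.16 and Gabra6 at 0.84 ± 0.44. Ionotropic glutamate receptor subunits (12 kept) had one of 0.00, with Grin2d at -1.50 ± 0.51 and Grin2a at 0.95 ± 0.41. Interneuron and neuropeptide genes (22 kept) had 0.06, with Calb1 as above and the homeobox gene Dlx2 at -0.76 ± 0.33. The 22 immediate early genes, which neuronal activity induces, had 0.14, with Egr1 at 0.43 ± 0.15 and the phosphatase gene Dusp6 at 0.45 ± 0.18.

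Voltage-gated channel genes (24 kept) had a median difference of -0.02, and 2 of them, Kcne1l and Cacna1g, fell in hippocampus. Glucocorticoid-induced genes (16 kept) had a median difference of 0.01, with Tsc22d3 at -1.06 ± 0.50 and the kinase gene Pdk4 at -0.45 ± 0.25. Genes of oxidative defence (27 kept) had -0.01, with thioredoxin (Txn1) at -0.31 ± 0.13 and the peroxidase gene Gpx1 at 0.38 ± 0.17. Heat shock genes (21 kept) had medians of -0.06 in hippocampus and -0.22 in cortex and a median difference of 0.07, with the co-chaperone gene Dnajb1 at -0.40 ± 0.14 and the chaperonin gene Hspd1 at 0.29 ± 0.10. The 50 oxidative phosphorylation genes had -0.08 in hippocampus, -0.07 in cortex and a median difference of 0.02, with Sdhc, of complex II, at -0.41 ± 0.12 and Atp5o, of the ATP synthase, at -0.33 ± 0.11. Over the 24 lists the median difference ranged from -0.39 to 0.21, and for 16 lists it lay within 0.1 of 0.

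**Figure D5:**
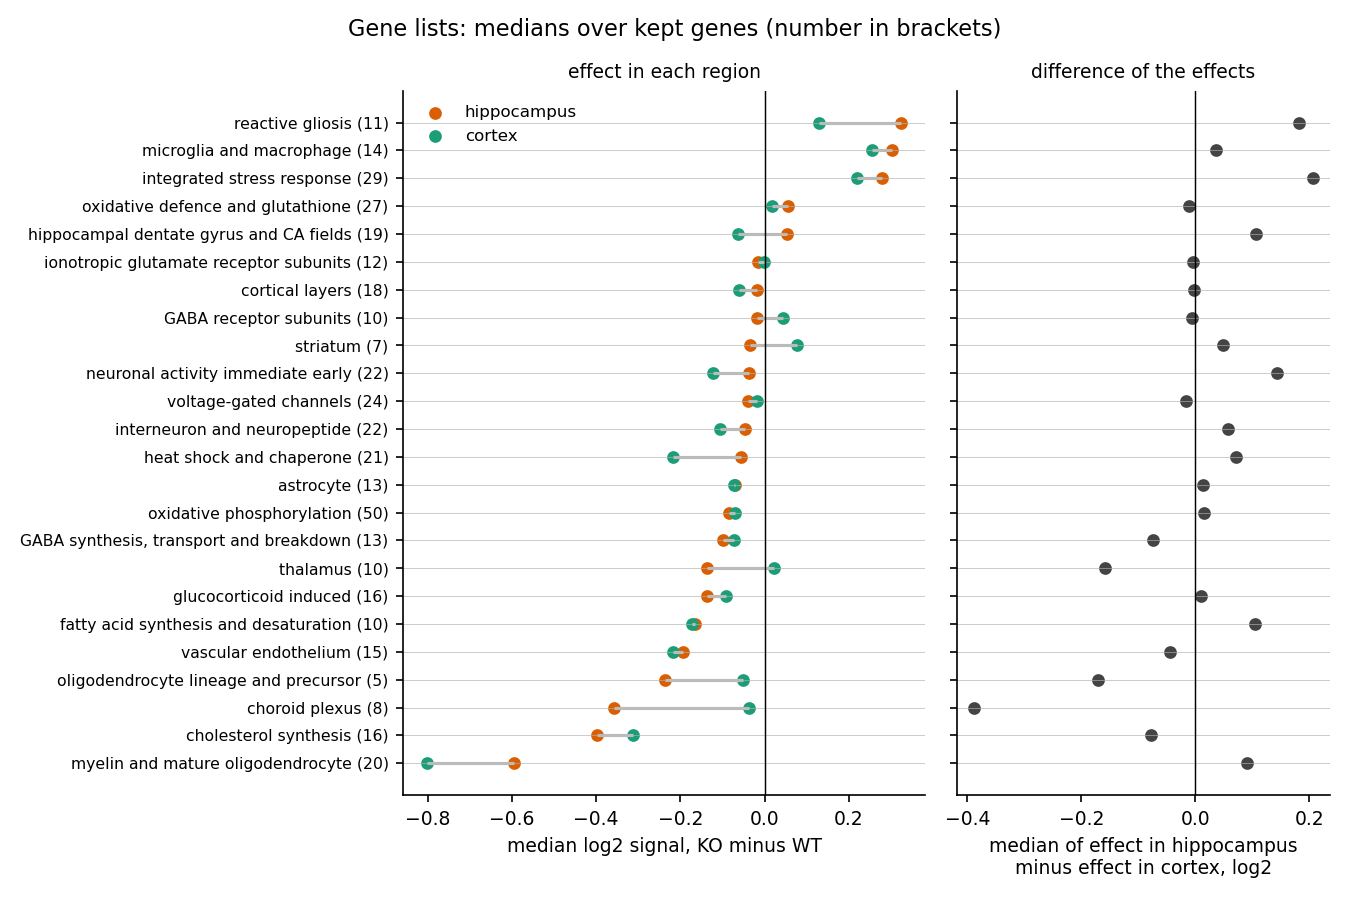
Median log2 difference of KO minus WT for each of 24 gene lists in hippocampus and cortex (left) and median of the effect in hippocampus minus that in cortex (right), with the number of kept genes in brackets. Myelin is lowest in both regions (-0.60 and -0.80), and the medians of the difference run from -0.39 for choroid plexus to 0.21 for the integrated stress response.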

How the data were processed

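Total RNA of 18 brain samples was measured on expression arrays, per the labels. The values deposited by the authors are linear intensity, and their trimmed mean was found to be nearly the same on every array, so no further scaling was applied (the software and its scaling step are not named in the sources used here). A low-signal floor, the 20th percentile (9.46), was applied before log2. Kept were probe sets whose signal passed the 40th percentile of its array on 3 or more of the 18 arrays (8382 of 12488, with 66 controls left out; 7554 with 1 gene symbol, for 6249 genes). Of all probe sets 10855 had 1 symbol, 396 several and 1237 none in the platform annotation, and 10839 matched the reference table.

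Tests used limma 3.58.1 in R 4.3.3 with an intensity trend and Benjamini-Hochberg adjustment over 8382 probe sets, two-sided, threshold 0.05. The difference and the mean were fitted on 6 per-animal values (4 residual degrees of freedom), and each region as a contrast of 6 group means on all 18 arrays (12). An exact permutation test of 3 against 3 cannot go below p = 0.1. The labels give each animal number to 1 array per region, which pairs the samples. Deviations of the paired arrays from their group means correlated at 0.0445 to 0.18 across probe sets. The scripts were tested on simulated data.

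Members and lists were chosen with earlier results of these data known. Named were all genes past the threshold in a region or both, the 10 of lowest p for the difference, those past the threshold for the mean with fillers to 8 by lowest p, and for lists up to 4 past the threshold or else 2 of lowest p for the difference. Genes outside this rule are marked as chosen after their values were seen. The brightest probe set stood for each list gene. Promoters came from RefSeq (GRCm38.p6). Alternatives changed the normalization, floor, filter, arrays, block, variance model and animals.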

Additional observations from a re-analysis of the deposited data

How the results depend on the processing

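The difference of effects between the regions had 0 calls under all 13 alternatives, among them no replicate block and the replicate block on all 18 arrays, with lowest adjusted p of 0.0587 (no filter) to 0.706 (without animal 3396) and 579 to 1073 probe sets at an unadjusted p under 0.05. With animal as a random replicate block, hippocampus had 3 higher and 8 lower, cortex 5 and 20, and both regions shared 1 and 4, so the block moved no count by over 1.5 times. Quantile normalization gave 10 higher in cortex, and no filter gave 12 higher in cortex and 5 higher in hippocampus. On the 12 arrays alone, hippocampus had 4 lower and the regions shared 1 lower, and on a region's own 6 arrays hippocampus had 0 higher and 1 lower and cortex 1 and 2, where fewer samples estimate the spread. For the mean, adding 16 in place of the floor gave 3 higher and 15 lower, the filter on the 12 arrays also 3 and 15, and no filter or no intensity trend 0 and 0. The causes were not tested.

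With 1 animal left out, hippocampus had 2 to 7 higher and 1 to 18 lower, cortex 2 to 8 higher and 4 to 27 lower, the mean 0 to 3 higher and 0 to 14 lower, the shared set 1 higher and 0 to 11 lower, and the difference 0 in each direction. Differences close to 0 changed sign for Gsn (-0.38 without 3403 and -0.0020 without 3396, range -0.38 to 0.48), for 2 Mobp probe sets (-0.11 without 3396, range -0.11 to 0.45, and -0.016 without 3403, range -0.016 to 0.44), for Cldn11 (-0.035, -0.0017 and -0.0015 without 3403, 3406 and 3396, range -0.035 to 0.19) and for Mog (-0.031 without 3403, range -0.031 to 0.48). The other 460 values for the difference of named genes kept their direction and their side of the threshold. With 3 animals a group and 4 residual degrees of freedom, the median half-width of an interval was 1.45-fold, and probe sets near the floor of 9.46, among them Kcne1l, Nupr1 in WT hippocampus and Septin4, carry bounds rather than measured levels on the arrays under it.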
